A study of Arabidopsis thaliana with 12 samples.

Results

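The salt response of smeb-1, an Arabidopsis thaliana line with a mutation of SmEb in the Col-0 background, was followed by RNA sequencing of whole seedlings 12 days old. The response is the difference between smeb-1 seedlings given 200 mM NaCl for 6 h and smeb-1 seedlings without salt, all grown on MS medium of reduced strength, with 2 libraries in each group. These 4 libraries were set against the salt-treated and control libraries of smeb-2, the other mutant line of SmEb, and of the Col-0 wild type, 12 libraries in all. Of the 33559 genes in the deposited table, 20251 had at least 1 FPKM (fragments per kilobase of transcript, scaled to the fragments of the library) in 2 or more of the 12 libraries and were tested. SmEb transcript, which checks the genotype labels, was at 23.2 and 22.9 FPKM in smeb-1 salt and 27.6 and 26 FPKM in smeb-1 control, against 73.3 and 76.1 FPKM in Col-0 salt and 58.9 and 55.1 FPKM in Col-0 control. By these values SmEb transcript is lowered in smeb-1 and not absent, though reads shared with its near copy SmEa could add to them. The sources used here do not give the kind of mutation or the number of seedlings in a library.

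SmEb encodes an E-type Sm protein, part of the ring of Sm proteins that binds the spliceosomal small nuclear RNAs. In salt, plant roots meet both osmotic stress and sodium ions. Osmotic stress raises abscisic acid (ABA), which binds PYR/PYL receptors. The receptors then hold back clade A PP2C phosphatases, SnRK2 kinases become active, and the kinases phosphorylate ABF transcription factors that switch on protective genes through the ABA response element. Salt also engages sodium and proton exchangers, the synthesis of proline and other compatible solutes, and the scavenging of reactive oxygen.

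The pair of libraries in each group is written as suffix 0 and suffix 1, after the last character of the column name, and values are given in that order. The labels do not state whether both were made from seedlings grown apart, so p-values measure the spread between these samples, which may be technical. Read totals are not given, and the depth is unknown. FPKM summed to 757263 and 765483 in smeb-1 salt and to 827553 and 831760 in smeb-1 control, and the 10 most abundant genes held 5.68% and 5.52% of it in salt and 7.85% and 7.99% in control. The median absolute log2 difference between libraries of a group was 0.0998 in smeb-1 salt and 0.0851 in smeb-1 control, but 0.167 in Col-0 salt, so differences from Col-0 rest on a pair that varied more. Among the labels of the treated samples 1 field reads Cd while the rest read salt, and salt is used here. The controls may have been taken at 0 or at 6 h. If at 0 h, effects of salt and of the hour of harvest cannot be told apart. Values are for whole seedlings, in which fewer cells of a type and less RNA per cell cannot be told apart. Both shoot genes and root genes were measured, and 0 of the 14 root markers were listed at 0 in an smeb-1 library.

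Salt changed 11708 genes in smeb-1, which is 57.8% of those tested, 6273 of them higher (31%) and 5435 lower (26.8%), at an adjusted p under 0.05 by limma. Which direction had more calls depended on the scaling, with 5900 higher and 5922 lower under median-of-ratios scaling and 5608 higher and 6298 lower under quantile normalization. Differences are given as log2 of salt over control on the log2(FPKM + 1) scale, with the standard error of the fit, and understate the change of low genes. The median over all tested genes was 0.03, and 1576 genes were at least 2-fold higher (7.78%) and 1095 at least 2-fold lower (5.41%). In Col-0 61.8% of genes passed and in smeb-2 59.7%. Because calls were this common, a count of called members in a list reads against 31% higher and 26.8% lower. The salt and control libraries did not overlap for 43.1% of genes in the higher and 38.8% in the lower direction, so absence of overlap is the common case and is not repeated for each gene below.

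The 12 largest rises included genes of drought and ABA responses and genes of anthocyanin synthesis. RD20, a caleosin of lipid bodies used as a drought marker, had 461 and 526 FPKM in smeb-1 salt and 6.45 and 9.62 FPKM in smeb-1 control (5.79 ± 0.19, adjusted p = 2.2e-08). HSFA6B, a heat shock factor that acts in ABA and drought responses, had 78.3 and 104 FPKM in salt and 0.755 and 1.15 FPKM in control (5.56 ± 0.178, adjusted p = 1.97e-08). LEA4-5, a late embryogenesis abundant protein that protects cells in water deficit, had 61.2 and 92.6 FPKM in salt and 2.05 and 0.834 FPKM in control (5.01 ± 0.434, adjusted p = 7.88e-06). In each of these genes both salt libraries lay far above both controls, and LEA4-5 varied most between libraries. DFR, dihydroflavonol reductase, had 99.7 and 109.9 FPKM in salt and 1.67 and 1.69 FPKM in control (5.30 ± 0.221, adjusted p = 6.95e-08). LDOX, the next enzyme on the route to anthocyanins, had 84.7 and 98.1 FPKM in salt and 1.79 and 1.81 FPKM in control (5.04 ± 0.174, adjusted p = 2.82e-08). BAM5, a beta-amylase, had 51.7 and 65.7 FPKM in salt and 0.243 and 0.653 FPKM in control (5.37 ± 0.291, adjusted p = 3.59e-07). CORI3, a tyrosine transaminase family gene induced by coronatine and jasmonate, was the most abundant of the 12 with salt. It had 1059.7 and 1296 FPKM in salt and 37.2 and 36.5 FPKM in control (4.95 ± 0.21, adjusted p = 7.53e-08). The other 5 were AT5G24640 (5.56), the cellulose synthase-like gene CSLA01 (5.36), the TRAF-like gene AT3G28220 (5.19), AT3G28270 (5.17) and TBL26 (4.56), with adjusted p of 3.17e-07 or lower.

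**Figure D1:**
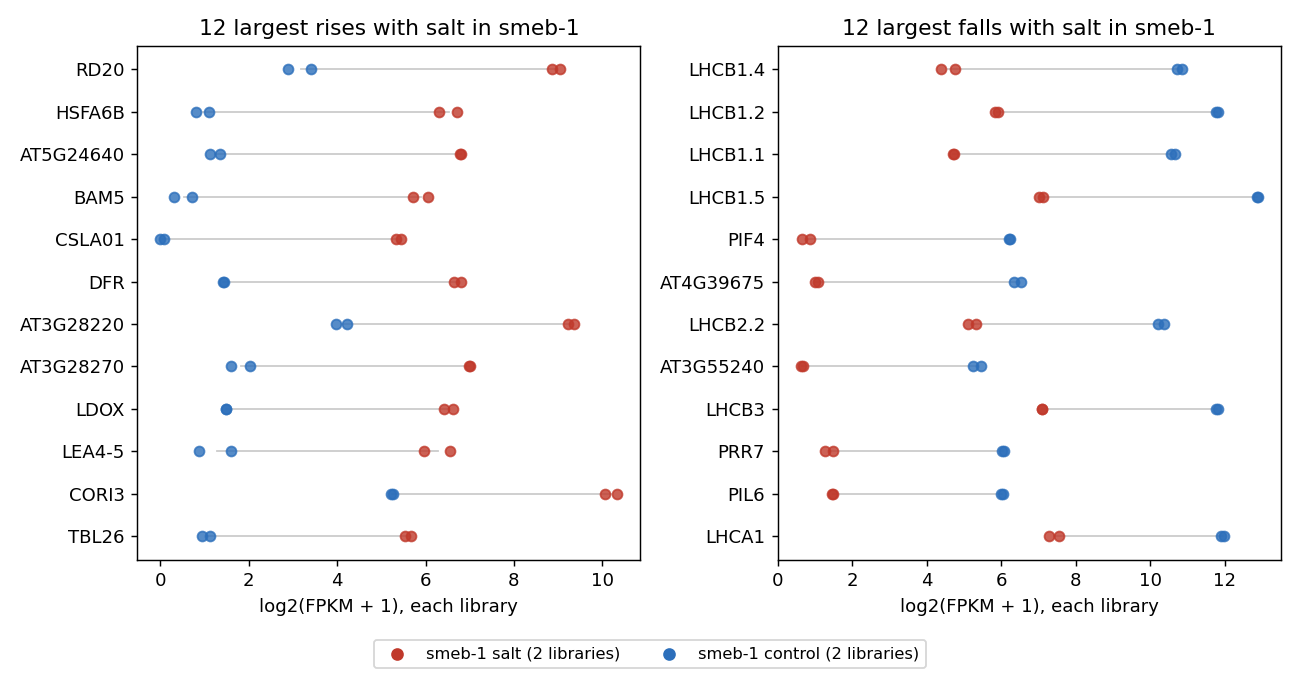
log2(FPKM + 1) of the 12 largest rises (left) and 12 largest falls (right) with salt in smeb-1, 1 point for each library, red for salt and blue for control. RD20 heads the rises, at 461 and 526 FPKM in salt against 6.45 and 9.62 FPKM in control, and LHCB1.4 the falls, at 25.9 and 20 FPKM in salt against 1672 and 1857 FPKM in control. In all 24 genes the salt and control libraries stand apart, as the rule that chose them required.

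The 12 largest falls were led by light-harvesting chlorophyll-binding proteins, 7 of the 12, with genes of the clock and of light signalling. LHCB1.4, an antenna protein of photosystem II, had 25.9 and 20 FPKM in smeb-1 salt and 1672 and 1857 FPKM in smeb-1 control (−6.21 ± 0.448, adjusted p = 2.23e-06). PIF4, a bHLH factor that promotes growth in warmth and shade, had 0.828 and 0.572 FPKM in salt and 72.8 and 74.8 FPKM in control (−5.46 ± 0.155, adjusted p = 1.14e-08). PIL6, also known as PIF5 and a close relative of PIF4, had 1.74 and 1.79 FPKM in salt and 62.2 and 64.8 FPKM in control (−4.54 ± 0.068, adjusted p = 5.7e-10). Both PIF genes were thus near or below 2 FPKM with salt and above 60 FPKM without it. PRR7, a morning-phased clock repressor, had 1.77 and 1.4 FPKM in salt and 64.1 and 66.1 FPKM in control (−4.68 ± 0.18, adjusted p = 4.68e-08). AT4G39675, an uncharacterised gene, had 0.991 and 1.12 FPKM in salt and 80.7 and 91.6 FPKM in control (−5.40 ± 0.2, adjusted p = 3.87e-08). The other falls were LHCB1.2 (−5.93), LHCB1.1 (−5.89), LHCB1.5 (−5.81), LHCB2.2 (−5.07), AT3G55240 (−4.72), LHCB3 (−4.70) and LHCA1 (−4.53), with adjusted p of 4.54e-06 or lower. The LHCB1 genes, and likewise the LHCB2 genes, are nearly identical, and how shared reads were counted is not given, so their single values are uncertain.

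Within the ABA pathway of smeb-1, genes at different steps moved in different directions. Of the 10 measured genes of ABA synthesis and breakdown, 8 rose, 0 fell and 2 did not pass (median 1.05, against 0.03 over all genes). BGLU18, a glucosidase that frees ABA from its glucose ester, had 756 and 709 FPKM in salt and 107 and 112 FPKM in control (2.73 ± 0.172, adjusted p = 8.97e-07). NCED3, the rate-limiting dioxygenase of ABA synthesis, had 7.94 and 9.74 FPKM in salt and 1.63 and 1.41 FPKM in control (1.96 ± 0.246, adjusted p = 9.37e-05). The ABA hydroxylases that break the hormone down rose too, CYP707A2 by 2.52, CYP707A4 by 1.54 and CYP707A1 by 1.34, while ABA1, zeaxanthin epoxidase, was at −0.11 ± 0.103 (adjusted p = 0.401). Among the 9 measured receptors 1 rose, 5 fell and 3 did not pass (median −0.92). PYL4 had 20.8 and 17.1 FPKM in salt and 179.6 and 173 FPKM in control (−3.16 ± 0.166, adjusted p = 2.96e-07). PYL5 (−2.34), PYL6 (−1.91) and PYR1 (−1.05) also fell, and PYL7 (0.83 ± 0.16, adjusted p = 0.00145) was the member that rose. The phosphatases went the other way from their receptors. All 8 tested clade A PP2C genes rose, of 9 listed (median 2.28). HAI2 had 16.9 and 21.9 FPKM in salt and 0.719 and 0.686 FPKM in control (3.57 ± 0.223, adjusted p = 8.54e-07), and ABI1, the founding member, had 111 and 121 FPKM in salt and 23.603 and 26.2 FPKM in control (2.17 ± 0.0941, adjusted p = 8.52e-08). HAI3 (2.77), HAI1 (2.61), HAB1 (2.39), ABI2 (1.59), HAB2 (0.94) and AHG3 (0.66) completed the 8.

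SnRK2 kinases and ABF factors were split, with 6 higher, 7 lower and 2 not passed of 15 (median −0.06). SNRK2.8 (23.4 and 25.5 FPKM in salt, 2.69 and 2.37 FPKM in control, 2.85 ± 0.144, adjusted p = 2.28e-07) and the factor ABF2 (33.5 and 35.2 FPKM in salt, 9.08 and 9.73 FPKM in control, 1.76 ± 0.134, adjusted p = 3.29e-06) were among those that rose. SNRK2.2 and SNRK2.3, core kinases of the ABA pathway, fell by 0.63 and 0.95 (adjusted p = 0.000577 and 2.03e-05). At the end of the pathway, 16 of 19 ABA and osmotic response genes rose, 1 fell and 2 did not pass (median 2.2). The count that fell was 0 without smeb-1 salt suffix 0 and without either smeb-1 control library. RD29A, a classic osmotic stress marker, had 445 and 524 FPKM in salt and 20.6 and 24.0 FPKM in control (4.38 ± 0.129, adjusted p = 1.29e-08). KIN1, a cold- and ABA-induced gene, had 1278 and 1647 FPKM in salt and 140.2 and 145 FPKM in control (3.34 ± 0.113, adjusted p = 2.54e-08). RD26, a NAC factor, rose by 2.57 and RD22, a dehydration-induced gene, by 2.31. ERD14, a dehydrin, was the member with the largest p. Its 451 and 545 FPKM in salt overlapped its 457 and 475 FPKM in control (0.09 ± 0.0994, adjusted p = 0.458). In the CBF and DREB list, factors that bind the dehydration response element, 8 of 9 rose, 0 fell and 1 did not pass (median 1.76). DREB2A had 42.5 and 65.4 FPKM in salt and 11.9 and 13.1 FPKM in control (2 ± 0.182, adjusted p = 1.11e-05). CBF4 had 4.68 and 6.82 FPKM in salt and is listed at 0 in both control libraries (adjusted p = 4.7e-06). DREB2C was at 3.76 and 4.02 FPKM in salt and 4.07 and 3.94 FPKM in control (adjusted p = 0.916).

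**Figure D2:**
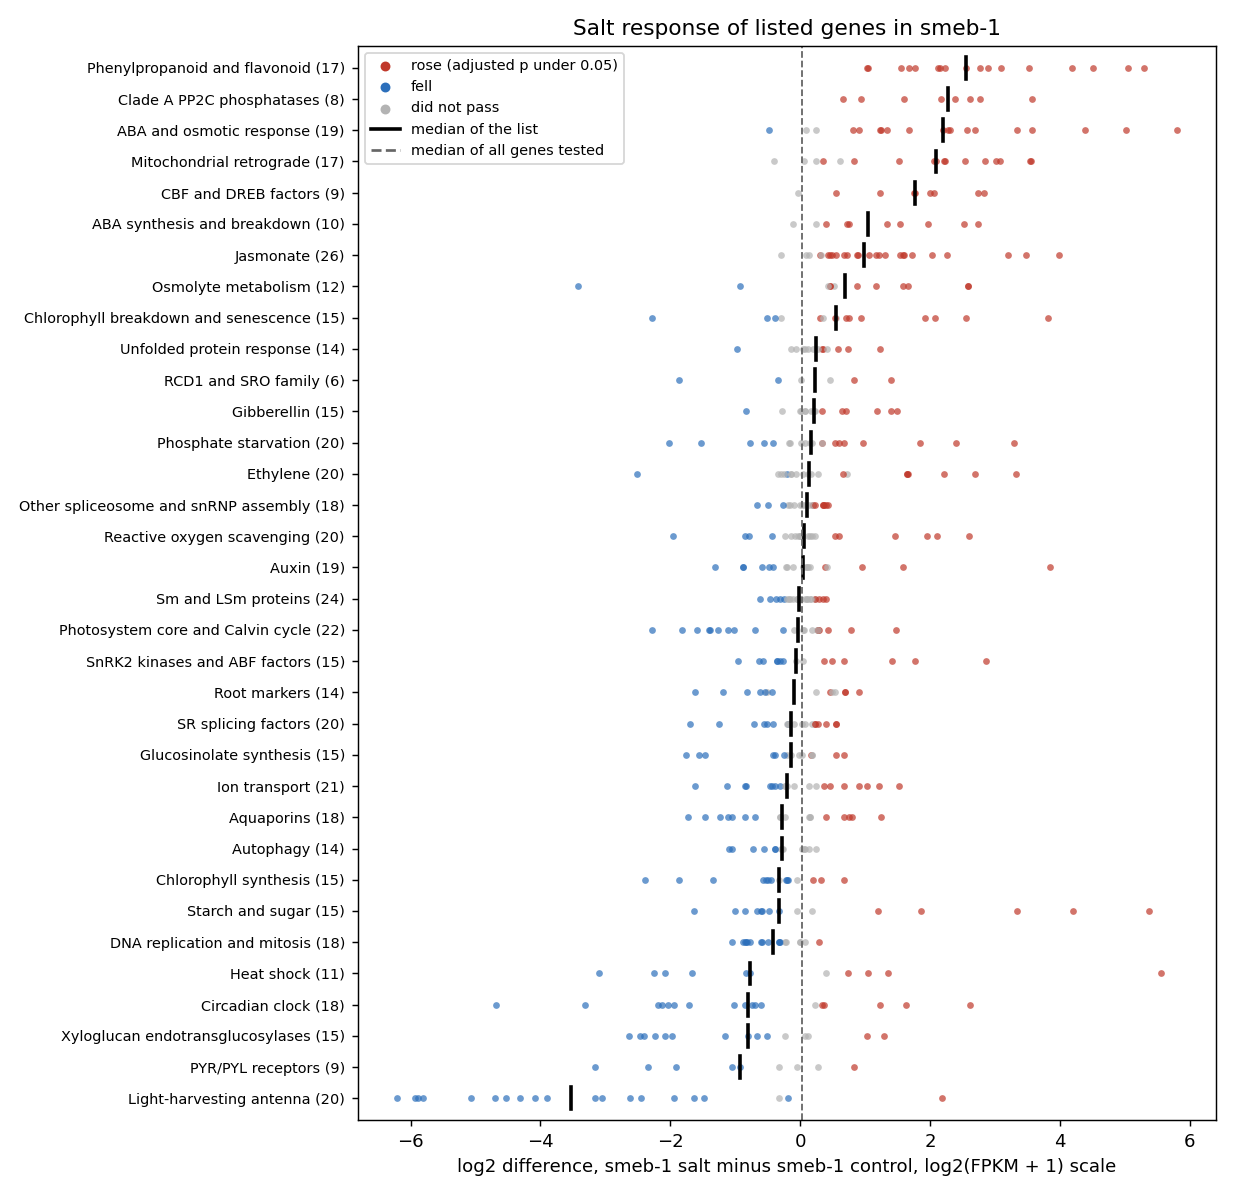
Salt response in smeb-1 of the 549 tested genes of 34 lists, 1 point for each gene, as the log2 difference of salt over control on the log2(FPKM + 1) scale. Red points rose, blue points fell and grey points did not pass, black bars are list medians, and the dashed line is the median of all tested genes at 0.03. The phenylpropanoid and flavonoid list has the highest median (2.56) and the light-harvesting antenna list the lowest (−3.53).

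The bases upstream of responding genes were searched for the sequences that such factors are known to bind. Windows ran from 250 bases before to 50 bases after each gene's annotated start in RefSeq TAIR10.1, and 111 tested genes had no whole window. ACGTG, the core of the ABA response element, stood on either strand in 47.5% of the 423 windows of genes at least 4-fold higher with salt in smeb-1 (2.09% of tested genes, 201 windows with the core). It stood in 28.3% of the 230 windows of genes at least 4-fold lower (1.14% of tested genes, 65 windows) and in 28.2% of all 20140 windows (5680 windows). The longer CACGTG, the G-box, which holds ACGTG on both strands, was in 19.4%, 7.39% and 8.89% of the same sets. The dehydration response elements GCCGAC and ACCGAC, counted together, were in 13.5%, 6.96% and 9.77%. The evening element AAAATATCT, known from clock-controlled genes, was in 3.78%, 6.09% and 3.02%, and the I-box GATAAG, known from light-regulated genes, in 16.1%, 20% and 14.9%. A match says only that the letters are present. The 250 upstream bases of 4 of the largest rises, each read 5′ to 3′ on the gene's strand, are shown for this motif, with the ACGTG core on either strand in capitals. In CACGTG a pair of matches overlaps. RD20 and DFR have 3 matches, LEA4-5 has 4, and LDOX has 0 although it rose beside DFR. These 4 genes do not stand for all of the largest rises named above. HSFA6B, BAM5, CORI3, AT5G24640, AT3G28270 and TBL26, like LDOX, had no match to the core in their windows. CSLA01 and AT3G28220 had matches.
RD20 (chr2:14146556-14146805, minus strand): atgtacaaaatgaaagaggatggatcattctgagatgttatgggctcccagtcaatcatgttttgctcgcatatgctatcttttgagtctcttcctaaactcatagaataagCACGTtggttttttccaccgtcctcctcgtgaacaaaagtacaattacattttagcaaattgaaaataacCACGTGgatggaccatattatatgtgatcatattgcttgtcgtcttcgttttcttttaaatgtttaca
LEA4-5 (chr5:2090431-2090680, minus strand): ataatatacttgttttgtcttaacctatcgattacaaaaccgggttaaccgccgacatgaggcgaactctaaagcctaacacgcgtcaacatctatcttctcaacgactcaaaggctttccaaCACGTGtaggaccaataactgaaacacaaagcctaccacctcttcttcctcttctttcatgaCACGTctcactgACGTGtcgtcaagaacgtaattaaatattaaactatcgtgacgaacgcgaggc
DFR (chr5:17166033-17166282, minus strand): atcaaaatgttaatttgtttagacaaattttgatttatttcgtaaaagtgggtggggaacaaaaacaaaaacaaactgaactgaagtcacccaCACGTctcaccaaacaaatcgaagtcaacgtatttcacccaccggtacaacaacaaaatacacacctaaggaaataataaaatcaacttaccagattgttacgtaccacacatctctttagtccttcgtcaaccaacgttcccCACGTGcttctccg
LDOX (chr4:12006210-12006459, minus strand): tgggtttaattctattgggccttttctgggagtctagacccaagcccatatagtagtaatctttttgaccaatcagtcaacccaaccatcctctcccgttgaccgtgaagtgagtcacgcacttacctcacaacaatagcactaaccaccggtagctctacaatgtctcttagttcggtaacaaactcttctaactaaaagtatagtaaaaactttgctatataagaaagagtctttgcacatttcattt

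**Figure D3:**
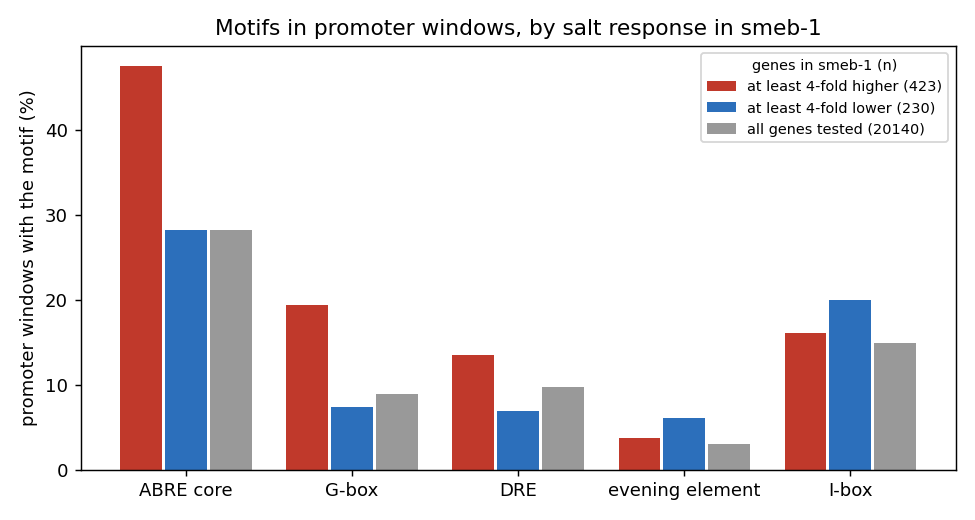
Share of promoter windows, in percent, that hold each motif on either strand, for genes at least 4-fold higher with salt in smeb-1 (red, 423 windows), at least 4-fold lower (blue, 230 windows) and all tested genes (grey, 20140 windows). The ABA response element core is in 47.5% of the first set and in 28.3% and 28.2% of the others.

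Mitochondrial retrograde genes, which answer signals from impaired mitochondria, rose in 13 of 17 cases, with 0 lower and 4 not passed (median 2.09). ZAT12, a zinc finger factor, had 79.3 and 85.4 FPKM in salt and 4.61 and 7.91 FPKM in control (3.56 ± 0.185, adjusted p = 2.71e-07). AOX1A, the alternative oxidase, had 165 and 176 FPKM in salt and 33.8 and 38.0 FPKM in control (2.22 ± 0.0845, adjusted p = 4.43e-08). OM66 (3.01), ZAT10 (2.54) and NAC013 (2.09) rose as well. NAC017, the membrane-bound factor upstream of these genes, was at 26.2 and 25.8 FPKM in salt and 25.4 and 24.5 FPKM in control (0.06 ± 0.0685, adjusted p = 0.489). RCD1, a nuclear protein that binds NAC013 and NAC017 and restrains them, had 94.3 and 85.9 FPKM in salt and 112 and 117 FPKM in control (−0.34 ± 0.11, adjusted p = 0.0224). That call was lost without smeb-1 salt suffix 1 (adjusted p = 0.129) and without smeb-1 control suffix 0 (0.0555) or suffix 1 (0.108). Of RCD1 and the SRO genes related to it, 2 of 6 rose, 2 fell and 2 did not pass (median 0.23), with 1 lower without those same libraries. SRO2 (1.4 ± 0.144, adjusted p = 2.4e-05) and SRO3 (0.83 ± 0.153, adjusted p = 0.00111) rose. SRO4 fell, from a low level, to 0.0893 and 0 FPKM in salt, against 2.75 and 2.83 FPKM in control (adjusted p = 0.000207). SRO5, known for a role in oxidative and salt stress, was at 11.0 and 11.3 FPKM in salt and 7.11 and 8.67 FPKM in control (0.45 ± 0.185, adjusted p = 0.0583), and SRO1 at 0.01. SRO5 passed, as higher, when only the smeb-1 groups were fitted (0.0139), with library weights (0.0372) and with the suffix as a block (0.0109).

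Enzymes that scavenge reactive oxygen were mixed, with 6 higher, 4 lower and 10 not passed of 20 (median 0.06). The catalases moved apart. CAT2, the leaf peroxisomal catalase, had 772 and 719.6 FPKM in salt and 117 and 127 FPKM in control (2.60 ± 0.0763, adjusted p = 1.27e-08). CAT3 had 585 and 466 FPKM in salt and 1958 and 2096 FPKM in control (−1.95 ± 0.152, adjusted p = 3.72e-06). Of the ascorbate and glutathione cycle, the peroxidase APX2 (2.1), the glutathione reductase GR1 (1.96) and the dehydroascorbate reductase DHAR1 (1.46) rose, and DHAR2 was at −0.01. Heat shock genes went both ways, HSFA6B among those that rose, with 4 of 11 higher, 6 lower and 1 not passed (median −0.77). HSP90.1, a cytosolic chaperone, had 11.9 and 10.2 FPKM in salt and 90.7 and 113 FPKM in control (−3.09 ± 0.116, adjusted p = 4.14e-08). HSFA2 (−2.25), HSP101 (−2.08) and HSP70-4 (−1.67) fell with it. For the unfolded protein response 5 of 14 rose, 1 fell and 8 did not pass (median 0.24). The transcription factor BZIP60 rose by 1.23 (adjusted p = 4.34e-07) and the chaperones BIP2 and BIP1 by 0.74 and 0.58, and the co-chaperone ERDJ3A fell by 0.98. Of 14 autophagy genes 0 rose, 6 fell and 8 did not pass (median −0.28). ATG8F had 111 and 109 FPKM in salt and 233 and 239 FPKM in control (−1.1 ± 0.189, adjusted p = 0.000751), and ATG8E, ATG8I and ATG8C fell by 1.05, 0.73 and 0.55. ATG5 was at −0.38 (adjusted p = 0.00932), a call lost without smeb-1 salt suffix 0 (0.0767) or smeb-1 control suffix 1 (0.0755).

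Ion transport genes also went both ways in smeb-1, with 7 of 21 higher, 8 lower and 6 not passed (median −0.20). NHX1, a vacuolar sodium/proton exchanger, had 70.8 and 70.5 FPKM in salt and 34.9 and 33.6 FPKM in control (1.02 ± 0.0783, adjusted p = 3.39e-06), and NHX2 rose by 1.21. The vacuolar proton pump AVP1, which drives such exchange, had 483 and 456 FPKM in salt and 262 and 237 FPKM in control (0.91 ± 0.0804, adjusted p = 9.01e-06). The calcium/proton exchanger CAX3 rose by 1.52. NHX5, an endosomal exchanger, fell by 1.13 (adjusted p = 6.92e-07), and SOS2, the kinase of the Salt Overly Sensitive pathway, was at −0.09 ± 0.111 (adjusted p = 0.49). Of 12 genes of compatible solutes 8 rose, 2 fell and 2 did not pass (median 0.69). P5CS1, which makes the first step of proline synthesis, had 279 and 282 FPKM in salt and 42.1 and 49.9 FPKM in control (2.59 ± 0.108, adjusted p = 7e-08). PRODH1, proline dehydrogenase, which breaks proline down and was chosen after its values were seen, had 36.3 and 52.7 FPKM in salt and 95.7 and 74.6 FPKM in control (−0.93 ± 0.183, adjusted p = 0.00165). PRODH2, the other proline dehydrogenase, was at 3.25 and 3.4 FPKM in salt and 1.74 and 2.76 FPKM in control (0.43 ± 0.182, adjusted p = 0.0662). PRODH2 passed, as higher, with library weights (0.0493), with the suffix as a block (0.0416) and without smeb-1 control suffix 1 (0.0219). The salt and control libraries of smeb-1 did not overlap for PRODH2, with both salt values above both control values. MIPS1, which makes inositol phosphate, rose by 2.58, the raffinose synthase RS5 by 1.66 and P5CS2 by 1.59. For aquaporins 5 of 18 rose, 7 fell and 6 did not pass (median −0.28). PIP1;4 had 329 and 377 FPKM in salt and 152 and 146 FPKM in control (1.24 ± 0.0741, adjusted p = 6.68e-07), while TIP2;1 had 311 and 354 FPKM in salt and 925 and 918 FPKM in control (−1.47 ± 0.105, adjusted p = 2.01e-06). PIP1;5, TIP1;2 and PIP1;3 fell by 1.23, 1.11 and 1.05.

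The antenna of the photosystems fell almost as a whole, while the photosystem cores were divided. Of 20 light-harvesting genes 18 fell, 1 rose and 1 did not pass (median −3.53), and their FPKM summed to 8457 and 8170.3 in smeb-1 salt and 60783 and 62435 in smeb-1 control. LHCB3 had 135 and 136 FPKM in salt and 3466 and 3614 FPKM in control (−4.70 ± 0.0796, adjusted p = 9.41e-10). LHCA4, of the photosystem I antenna, had 291 and 284 FPKM in salt and 4159 and 4452 FPKM in control (−3.90 ± 0.0833, adjusted p = 2.55e-09). LHCB4.2 had 190.2 and 186 FPKM in salt and 1638 and 1747 FPKM in control (−3.16 ± 0.0808, adjusted p = 6.65e-09). LHCB4.3, an isoform known to be induced by strong light and named here as the lone member that rose, had 135 and 124 FPKM in salt and 25.8 and 30.1 FPKM in control (2.18 ± 0.128, adjusted p = 5.89e-07). LHCA6 was at −0.33 ± 0.166 (adjusted p = 0.113), and passed, as lower, when only the smeb-1 groups were fitted (0.00674) and with library weights (0.0188). In the photosystem core and Calvin cycle list 6 of 22 rose, 10 fell and 6 did not pass (median −0.03). Under quantile normalization the counts were 11 higher and 9 lower with a median of 0.34, so a direction for this list as a whole depends on the scaling. PSBQ2, of the oxygen-evolving complex, had 515 and 481 FPKM in salt and 2384 and 2491 FPKM in control (−2.29 ± 0.0801, adjusted p = 2.98e-08). PSAF and PSAD1, of photosystem I, fell by 1.81 and 1.59. RBCS1A, the small subunit of Rubisco, was the most abundant gene of the list at 13747 and 13039 FPKM in salt and 12911 and 13104 FPKM in control (0.04 ± 0.113, adjusted p = 0.769), and rose only under quantile normalization (0.58, adjusted p = 0.00745).

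Of 15 chlorophyll synthesis genes 3 rose, 10 fell and 2 did not pass (median −0.32). PORB, a protochlorophyllide oxidoreductase, had 274 and 251 FPKM in salt and 930.3 and 985 FPKM in control (−1.86 ± 0.0774, adjusted p = 6.79e-08), and PORA and the chelatase subunit CHLI2 fell by 2.4 and 1.34. GUN4, which binds chlorophyll precursors and activates the magnesium chelatase, had 98.9 and 95.1 FPKM in salt and 59.5 and 60.8 FPKM in control (0.68 ± 0.0907, adjusted p = 0.000143). PORC was at −0.05 (adjusted p = 0.717). For chlorophyll breakdown and senescence 9 of 15 rose, 3 fell and 3 did not pass (median 0.56). The sugar transporter SAG29 had 43.4 and 45.1 FPKM in salt and 2.18 and 2.27 FPKM in control (3.81 ± 0.237, adjusted p = 8.51e-07). The senescence factors NAP (2.55) and ORE1 (1.92) and the pheophorbide oxygenase PAO (0.76) rose, and the chlorophyll b reductase NOL fell by 0.39. In the clock 5 of 18 genes rose, 12 fell and 1 did not pass (median −0.80). GI had 3.72 and 3.25 FPKM in salt and 42.9 and 44.2 FPKM in control (−3.31 ± 0.101, adjusted p = 1.55e-08). PRR3 and LUX, with evening peaks, fell by 2.04 and 1.71, and LNK2, a coactivator of RVE8, had 2.93 and 3.13 FPKM in salt and 16.6 and 16.6 FPKM in control (−2.13 ± 0.0916, adjusted p = 8.21e-08). RVE8, named after its values were seen as the highest of the list, had 8.57 and 7.34 FPKM in salt and 0.392 and 0.532 FPKM in control (2.61 ± 0.132, adjusted p = 2.27e-07). The part that the uncertain harvest time of the controls has in these values was not tested.

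Jasmonate genes rose in 22 of 26 cases, with 0 lower and 4 not passed (median 0.98). VSP1, a vegetative storage protein and jasmonate marker, had 246 and 276 FPKM in salt and 14 and 17.3 FPKM in control (3.98 ± 0.273, adjusted p = 1.58e-06). LOX2, a chloroplast lipoxygenase at the start of jasmonate synthesis, had 1473 and 1582 FPKM in salt and 135 and 137 FPKM in control (3.48 ± 0.219, adjusted p = 8.95e-07). MYC2, the central transcription factor of the pathway, had 41.2 and 38.6 FPKM in salt and 11.2 and 11.5 FPKM in control (1.72 ± 0.0724, adjusted p = 7.1e-08). The repressor JAZ1 rose by 2.03 and the cyclase AOC2 by 2.26, while AOC3 was at 0.14 (adjusted p = 0.439). Enzyme, regulator, repressor and marker thus all appeared among the risen. In the ethylene list 7 of 20 rose, 2 fell and 11 did not pass (median 0.14), and 1 lower without smeb-1 salt suffix 1 or smeb-1 control suffix 1. The synthases of the ethylene precursor rose. ACS2 had 17.56 and 15.6 FPKM in salt and 0.702 and 0.825 FPKM in control (3.31 ± 0.105, adjusted p = 1.93e-08), and ACS7, ACS6 and ACS8 rose by 2.69, 2.21 and 1.65. ACO1, an oxidase that makes ethylene from the precursor, fell by 2.51 (adjusted p = 1.17e-05). Of 19 auxin genes 4 rose, 6 fell and 9 did not pass (median 0.05). GH3.3, which conjugates auxin to amino acids, had 66.1 and 96.8 FPKM in salt and 4.75 and 4.55 FPKM in control (3.84 ± 0.155, adjusted p = 5.78e-08). The growth-related SAUR15 fell by 1.32, IAA7 by 0.88 and the efflux carrier PIN7 by 0.42. Of 15 gibberellin genes 6 rose, 1 fell and 8 did not pass (median 0.21). The catabolic oxidase GA2OX6 rose by 1.5 and the DELLA repressor RGL2 by 1.4, while GAI, another DELLA, fell by 0.84 (adjusted p = 5.23e-05).

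All 17 measured phenylpropanoid and flavonoid genes rose in smeb-1 (median 2.56). Besides DFR and LDOX, the anthocyanin glucosyltransferase UF3GT had 39.8 and 37.2 FPKM in salt and 0.76 and 0.717 FPKM in control (4.51 ± 0.203, adjusted p = 1.15e-07). PAL1 and PAL2, phenylalanine ammonia lyases at the entry of the pathway, rose by 1.67 and 1.56. MYB90, an activator of anthocyanin genes, had 5.78 and 5.77 FPKM in salt and is listed at 0 in both control libraries (adjusted p = 0.000335). Of 15 starch and sugar genes 5 rose, 8 fell and 2 did not pass (median −0.33). The beta-amylase BAM3 had 385 and 423 FPKM in salt and 20.9 and 21.0 FPKM in control (4.2 ± 0.0825, adjusted p = 1.31e-09), APL3, a subunit of the enzyme that commits glucose to starch, rose by 3.34, and the alpha-amylase AMY3 fell by 1.63. Glucosinolate synthesis had 3 higher, 6 lower and 6 not passed of 15 (median −0.15). Without smeb-1 control suffix 1 it had 1 higher and 3 lower, without smeb-1 salt suffix 1 it had 3 lower, and without smeb-1 salt suffix 0 it had 1 higher. BCAT4 and MAM1, of methionine chain elongation, fell by 1.76 and 1.56, and the regulator MYB34 rose by 0.67 (adjusted p = 0.00127).

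Growth-related genes were mostly lower. Of 15 xyloglucan endotransglucosylases, enzymes that remodel cell walls, 2 rose, 10 fell and 3 did not pass (median −0.80). TCH4 had 109 and 127 FPKM in salt and 670.1 and 805 FPKM in control (−2.63 ± 0.101, adjusted p = 4.68e-08), XTH9 and XTH15 fell by 2.4 and 2.23, and XTH7 rose by 1.3. Of 18 genes of DNA replication and mitosis 1 rose, 12 fell and 5 did not pass (median −0.41), with 0 higher without smeb-1 salt suffix 0, smeb-1 salt suffix 1 or smeb-1 control suffix 1. The mitotic kinase AUR1 had 6.05 and 7.15 FPKM in salt and 16.9 and 12.7 FPKM in control (−1.05 ± 0.151, adjusted p = 0.000231). The cyclin CYCB1;2, the kinase CDKB1;1 and the cytokinesis syntaxin KN fell by 0.88, 0.83 and 0.82. Root markers went both ways, with 4 of 14 higher, 6 lower and 4 not passed (median −0.09). Their FPKM summed to 832 and 691 in salt and 1255 and 1292 in control, most of it PYK10, a root glucosidase at 738 and 595 FPKM in salt and 1153 and 1195 FPKM in control (−0.82 ± 0.0948, adjusted p = 5.21e-05). SCR, an endodermal transcription factor, rose by 0.91, while CASP2 and CASP1, proteins of the Casparian strip, fell by 1.63 and 1.2. Whether the share of root in the harvested seedlings differed between the groups was not tested.

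Phosphate starvation genes had 8 higher, 5 lower and 7 not passed of 20 (median 0.17). The transporter PHT1;1 had 111 and 72.7 FPKM in smeb-1 salt and 21.7 and 27.5 FPKM in smeb-1 control (1.84 ± 0.179, adjusted p = 1.7e-05). The acid phosphatase PAP17 had 109 and 96.9 FPKM in salt and 15.1 and 23.2 FPKM in control (2.39 ± 0.215, adjusted p = 1.02e-05), and RNS1, a ribonuclease, rose by 3.28. SPX3, a phosphate sensor, was low throughout, at 0.418 and 0.283 FPKM in salt and 0.936 and 1.04 FPKM in control (−0.56 ± 0.124, adjusted p = 0.00325). The pyrophosphatase PS2 was at 7.8 and 7.62 FPKM in salt and 7.9 and 9.53 FPKM in control (−0.15 ± 0.136, adjusted p = 0.36).

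Calls among splicing genes went both ways in smeb-1, as they did over all tested genes (31% higher and 26.8% lower). Most of the Sm and LSm list was not called. Of 24 Sm and LSm proteins 4 rose, 5 fell and 15 did not pass (median −0.03), with 2 higher without smeb-1 salt suffix 1 or without smeb-1 control suffix 0. SmEb was at −0.21 ± 0.0919 (adjusted p = 0.0733) and passed with median-of-ratios scaling (0.0335), with quantile normalization (0.0234) and when only the smeb-1 groups were fitted (0.0289). SmEa, its near copy with which it could share reads, had 28.6 and 29.6 FPKM in salt and 31.1 and 29.5 FPKM in control (−0.06 ± 0.0937, adjusted p = 0.63). LSM7 had 48.0 and 46.6 FPKM in salt and 72.7 and 73.5 FPKM in control (−0.62 ± 0.0541, adjusted p = 8.45e-06), the lowest of the family, and LSM1B was the highest at 0.39 (0.24 without smeb-1 salt suffix 1). SR splicing factors, which choose splice sites, had 6 higher, 7 lower and 7 not passed of 20 (median −0.14). SR34B had 4.35 and 5.45 FPKM in salt and 18 and 18.16 FPKM in control (−1.70 ± 0.0923, adjusted p = 3.64e-07), SR45A and SR34 fell by 1.25 and 0.72, and SR34A rose by 0.55. Of 18 other spliceosome and assembly genes 7 rose, 3 fell and 8 did not pass (median 0.10), with 3 higher without smeb-1 control suffix 1. U2AF65A, which reads the end of introns, fell by 0.66, CDC5 fell by 0.50, and PRL1 rose by 0.42.

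The authors' deposited tables list splicing events as SmEb dependent or SmEb independent, from pooled libraries. The SmEb dependent table holds 137 events in 131 genes, all tested here for expression. Of these genes 31 rose, 57 fell and 43 did not pass with salt in smeb-1, so 67.2% were called. In the SmEb independent table, with 208 events in 199 genes, 195 genes were tested, and 43 rose, 79 fell and 73 did not pass, or 62.6% called. Both shares stand beside 57.8% of all tested genes (31% higher and 26.8% lower). In both tables more genes fell than rose. The median response was −0.16 for the SmEb dependent and −0.13 for the SmEb independent genes, against 0.03 over all tested genes. Of genes with several events in the SmEb dependent table, MEKK3, a kinase of a mitogen-activated cascade, had 9.13 and 10 FPKM in salt and 18.7 and 20.1 FPKM in control (−0.95 ± 0.131, adjusted p = 0.000177). AT4G13495 and AT4G35785 fell by 1.09 and 0.36, MYB4R1 rose by 0.39, and AT2G37150, with 3 events, was at 0.05 (adjusted p = 0.775). None of the 8 genes with several events in the SmEb independent table passed, among them PPH, a chlorophyll-degrading phytol hydrolase (0.35 ± 0.169, adjusted p = 0.0994), and BIM1 (−0.08 ± 0.0707, adjusted p = 0.383).

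Whether smeb-1 responded otherwise than the wild type was tested as a difference of differences, the response of smeb-1 minus that of Col-0. It passed for 1726 genes, 8.52% of those tested, 1027 with a higher response in smeb-1 (5.07%) and 699 with a lower one (3.45%). Counts of list members with a higher or lower response than in Col-0 read against these shares. The number of calls rested on single libraries. Without Col-0 salt suffix 0 it was 4709, with 2167 higher and 2542 lower, so that lower responses then outnumbered higher ones. It was 1754 without Col-0 salt suffix 1. It was 820 without smeb-1 salt suffix 0, 989 without smeb-1 salt suffix 1, 640 without smeb-1 control suffix 0, 797 without smeb-1 control suffix 1, 858 without Col-0 control suffix 0 and 662 without Col-0 control suffix 1. It was 834 when only these 4 groups were fitted. The 43 called differences printed for named genes all kept their direction without either Col-0 salt library. Leaving out either one also takes this more variable pair out of the shared spread. That omission therefore cannot show that these calls are stable. Of the 1027 genes with a higher response, 575 (56.0%) had their larger gap between smeb-1 and Col-0 in control and not in salt, and of the 699 with a lower response 285 (40.8%) did. In 77 and 49 of these genes salt was called in opposite directions in the 2 lines. Genes at least 2-fold higher with salt in smeb-1 had a median of 1.51 in smeb-1 and 1.43 in Col-0, and 1151 of the 1576 were also called and at least 2-fold higher in Col-0, which 8.66% of all tested genes were.

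**Figure D4:**
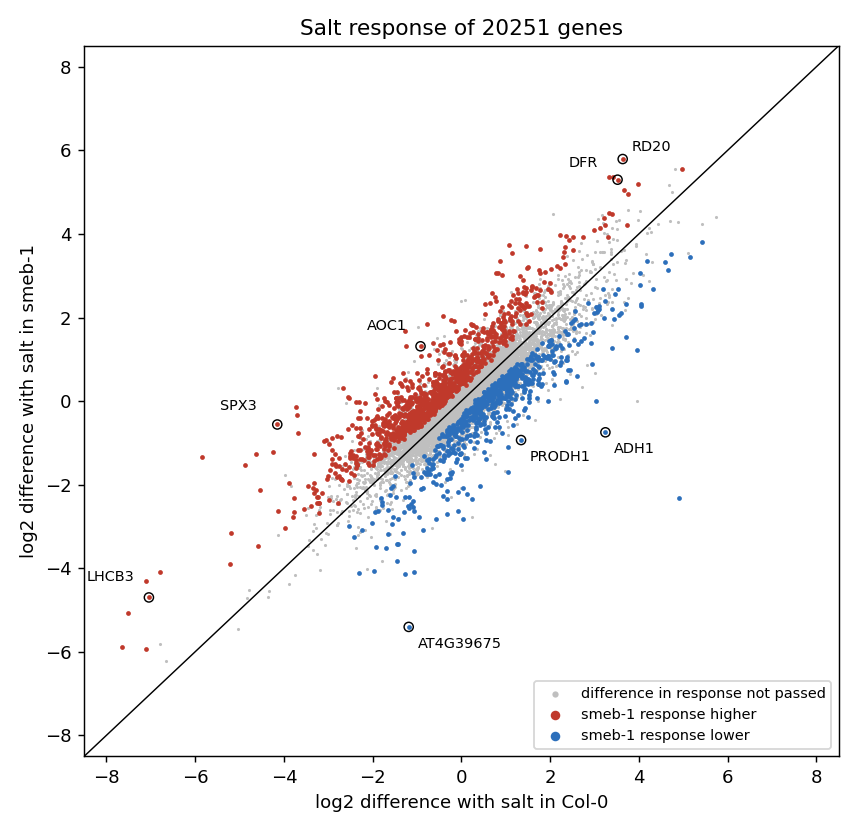
Salt response of each of the 20251 tested genes in smeb-1 (vertical) and in Col-0 (horizontal), as log2 differences of salt over control on the log2(FPKM + 1) scale, with the line of equal response. Red and blue mark the 1027 genes with a higher and the 699 with a lower response in smeb-1 (adjusted p under 0.05), and circles mark genes described in the text. LHCB3 and SPX3 lie left of the line, with falls of 4.70 and 0.56 in smeb-1 and of 7.04 and 4.15 in Col-0.

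Of the 8 called genes with the highest response in smeb-1 relative to Col-0, among those with a mean of at least 5 FPKM over the 8 libraries, 4 were in the phosphate starvation list (SPX3, PS2, PEPC1 and MGDC). The others were PAP14, LHCB2.3, AT5G46900 and U1.5. In the phosphate list 14 of 20 members had a higher response in smeb-1 and 0 a lower one (median response 0.17 in smeb-1, 0.19 in smeb-2 and −1.06 in Col-0). SPX3 had 0.418 and 0.283 FPKM in smeb-1 salt and 0.936 and 1.04 FPKM in smeb-1 control, against 0.331 and 0.295 FPKM in Col-0 salt and 20.5 and 24.2 FPKM in Col-0 control (difference 3.59 ± 0.175, adjusted p = 1.73e-05). PS2, at 7.8, 7.62, 7.9 and 9.53 FPKM in the smeb-1 libraries, had 8.96 and 6.62 FPKM in Col-0 salt and 116 and 111 FPKM in Col-0 control (difference 3.57 ± 0.193, adjusted p = 3.33e-05). Of these 4 groups only the Col-0 controls were high in both genes. PEPC1, a phosphatase gene, had 0.558 and 0.435 FPKM in smeb-1 salt and 2.43 and 4.38 FPKM in smeb-1 control, against 1.79 and 1.71 FPKM in Col-0 salt and 79.3 and 79.6 FPKM in Col-0 control (difference 3.35 ± 0.242, adjusted p = 0.000186). MGDC, a galactolipid synthase, had 0.301 and 0.223 FPKM in smeb-1 salt and 0.878 and 1.46 FPKM in smeb-1 control, against 0.571 and 0.594 FPKM in Col-0 salt and 22.3 and 16.7 FPKM in Col-0 control (difference 2.91 ± 0.233, adjusted p = 0.000229). In both, as in SPX3 and PS2, the Col-0 controls were far above the other 3 groups. The acid phosphatase PAP14, listed at 0 in both smeb-1 salt libraries, had 0.70 and 2.37 FPKM in smeb-1 control, 0 and 0.103 FPKM in Col-0 salt and 27.2 and 23.0 FPKM in Col-0 control (adjusted p = 0.000868). PHT1;1 and PAP17 differed otherwise, since they rose in smeb-1. PHT1;1 was at 36.5 and 42.0 FPKM in Col-0 salt and 35.3 and 31.8 FPKM in Col-0 control (difference 1.62 ± 0.253, adjusted p = 0.00551). PAP17 was at 198 and 142 FPKM in Col-0 salt and 93.4 and 100.04 FPKM in Col-0 control (difference 1.61 ± 0.305, adjusted p = 0.0135, but 0.0523 without smeb-1 salt suffix 0 and 0.0567 without Col-0 control suffix 1).

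The fall of the antenna was smaller in smeb-1, with 15 of 20 members at a higher response and 0 at a lower one (median response −3.53 in smeb-1, −3.93 in smeb-2 and −4.99 in Col-0). LHCB3 kept 135 and 136 FPKM in smeb-1 salt against 37.4 and 33.7 FPKM in Col-0 salt, and its controls were at 3466 and 3614 FPKM in smeb-1 and 4702 and 4919 FPKM in Col-0 (difference 2.34 ± 0.113, adjusted p = 1.73e-05). LHCB2.1 had 61.0 and 60.4 FPKM in smeb-1 salt and 991 and 1111 FPKM in smeb-1 control, against 17.9 and 14.9 FPKM in Col-0 salt and 1936 and 1878 FPKM in Col-0 control (difference 2.69 ± 0.132, adjusted p = 1.73e-05). For LHCB2.3 the difference was 2.79 ± 0.207 (adjusted p = 0.000189). In these genes smeb-1 stood above Col-0 in salt and below it in control, with no overlap of the lines. The photosystem core list had 13 of 22 members at a higher response and 0 at a lower one, with 20 higher without Col-0 salt suffix 0 and 7 higher under quantile normalization, and chlorophyll synthesis 7 of 15 and 0. GUN4, which rose in smeb-1, had 58.4 and 48.2 FPKM in Col-0 salt and 95.3 and 87.5 FPKM in Col-0 control (difference 1.45 ± 0.128, adjusted p = 0.000331). LNK2 fell in both lines, and less in smeb-1, since its Col-0 controls were at 44.4 and 42.7 FPKM and its Col-0 salt libraries at 3.22 and 3.96 FPKM (difference 1.16 ± 0.13, adjusted p = 0.00109).

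**Figure D5:**
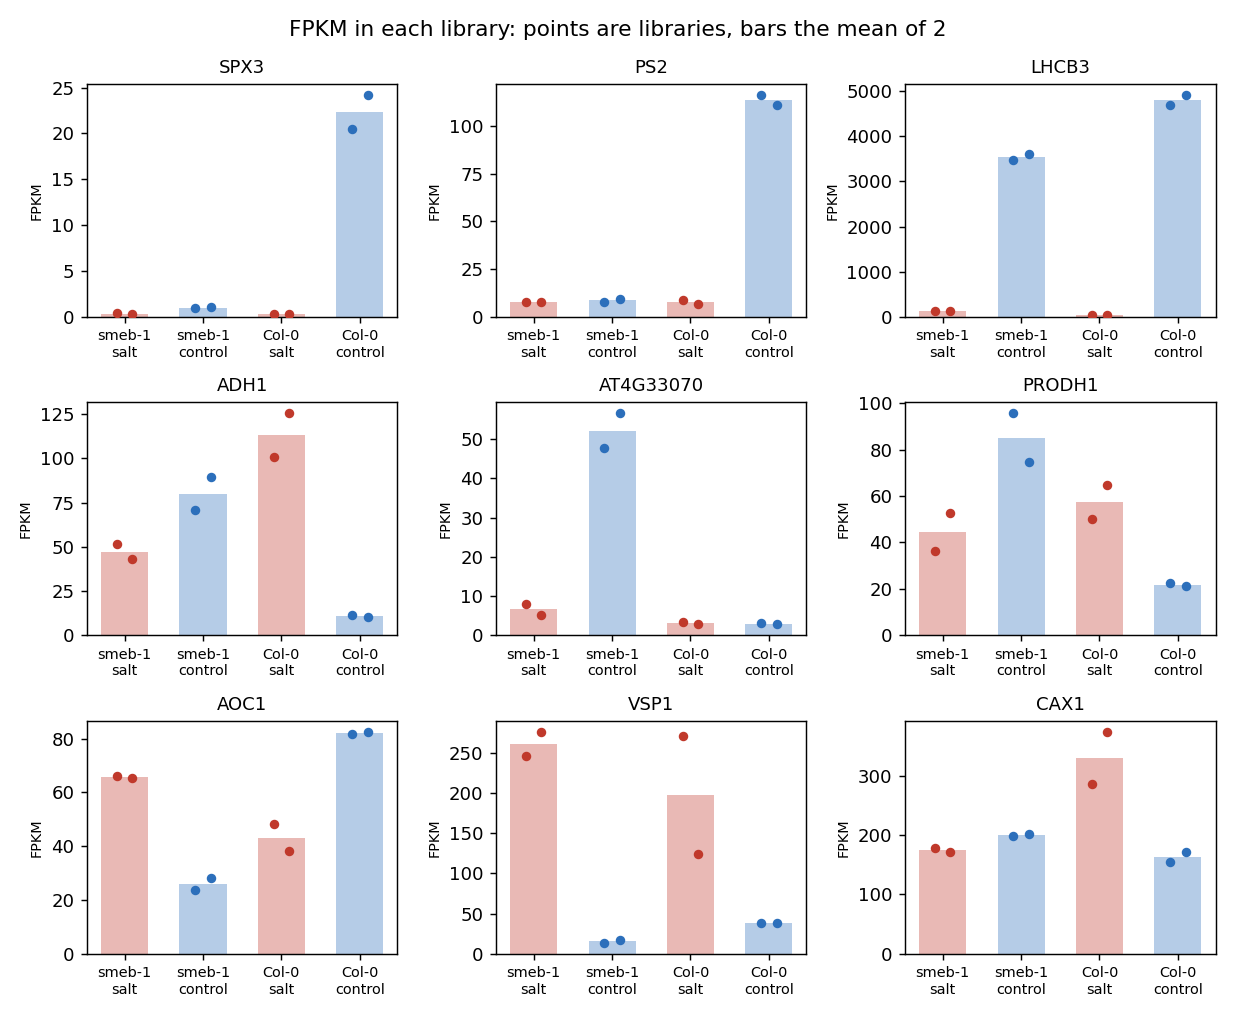
FPKM of 9 genes whose salt response differed between smeb-1 and Col-0, with points for libraries and bars for the mean of 2. In SPX3, PS2 and LHCB3 the Col-0 control stands highest. In ADH1 and PRODH1 smeb-1 has less in salt than in control and Col-0 has more, in AOC1 the reverse, and AT4G33070 is high only in smeb-1 control, at 47.6 and 56.6 FPKM.

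Jasmonate genes differed in the same sense, with 11 of 26 members at a higher response in smeb-1 and 0 at a lower one, although the count was between 4 and 7 without any 1 library of smeb-1 or of the Col-0 control and 5 when only these groups were fitted. AOC1 and OPR3, enzymes of jasmonate synthesis chosen after their values were seen, moved in opposite directions in the lines. AOC1 had 66.3 and 65.4 FPKM in smeb-1 salt and 23.9 and 28.1 FPKM in smeb-1 control, against 48.4 and 38.1 FPKM in Col-0 salt and 81.7 and 82.6 FPKM in Col-0 control (difference 2.23 ± 0.199, adjusted p = 0.000331). OPR3 had 28.9 and 28.4 FPKM in smeb-1 salt and 19.5 and 21.7 FPKM in smeb-1 control, against 34.3 and 32.6 FPKM in Col-0 salt and 48.9 and 57.3 FPKM in Col-0 control (difference 1.11 ± 0.128, adjusted p = 0.00125). In both genes smeb-1 control was the lowest group and Col-0 control the highest. MYC2 had 38.7 and 36.2 FPKM in Col-0 salt, close to the smeb-1 salt level, and 19.1 and 19.6 FPKM in Col-0 control, above smeb-1 control (difference 0.81 ± 0.102, adjusted p = 0.00191). VSP1 was at 272 and 124 FPKM in Col-0 salt and 37.9 and 38.6 FPKM in Col-0 control. Its difference was 1.75 ± 0.387 (adjusted p = 0.0251, but 0.0557 with no filter and 0.0757 with only these groups fitted). That call was lost without each of the smeb-1 libraries and of the Col-0 control libraries (adjusted p between 0.0553 and 0.0931).

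Several abundant salt-induced genes also had a larger log2 rise in smeb-1, from lower controls, but the lists of RD20, RD29A, P5CS1 and CAT2 went both ways. Of 19 ABA and osmotic response genes 3 had a higher and 5 a lower response, or 3 and 2 when only these groups were fitted. Of 12 compatible solute genes 3 had a higher and 3 a lower response, and of 20 reactive oxygen genes 2 and 3. RD20 was at 655 and 672 FPKM in Col-0 salt and 53.0 and 51.9 FPKM in Col-0 control, both above their smeb-1 counterparts (difference 2.16 ± 0.268, adjusted p = 0.00178). RD29A was at 1079 and 1224 FPKM in Col-0 salt and 137 and 111 FPKM in Col-0 control (difference 1.17 ± 0.183, adjusted p = 0.00548, but 0.45 and adjusted p = 0.158 under quantile normalization). P5CS1 was at 319 and 283 FPKM in Col-0 salt and 123 and 104 FPKM in Col-0 control (difference 1.19 ± 0.153, adjusted p = 0.00209). In these 3 genes the smeb-1 salt level did not exceed that of Col-0, and the gap in control was the wider one. CAT2 (difference 1.15 ± 0.108, adjusted p = 0.000435) and AOX1A (0.81 ± 0.119, adjusted p = 0.00411) had higher salt levels and lower control levels in smeb-1 than in Col-0, at 636 and 682 FPKM and 114 and 128 FPKM in Col-0 salt, and 231 and 249.96 FPKM and 45.5 and 44.6 FPKM in Col-0 control. DFR and LDOX were higher in smeb-1 salt, since they had 50.5 and 33.3 FPKM and 47.8 and 30.5 FPKM in Col-0 salt (differences 1.78 ± 0.313, adjusted p = 0.00961, and 1.38 ± 0.246, adjusted p = 0.0104). In the flavonoid list 6 of 17 had a higher response and 0 a lower one, with 11 without Col-0 salt suffix 0 and 3 without any 1 library of smeb-1 or of the Col-0 control. BAM5 (difference 1.96 ± 0.412, adjusted p = 0.0208) and CSLA01 (2.03 ± 0.306, adjusted p = 0.00461) also responded more in smeb-1. The BAM5 call was lost without smeb-1 salt suffix 1 (0.0690), smeb-1 control suffix 0 (0.0824) or Col-0 control suffix 1 (0.0833). KIN1, unlike RD20, responded less, with 1834 and 1623 FPKM in Col-0 salt and 72.2 and 68.7 FPKM in Col-0 control (difference −1.26 ± 0.16, adjusted p = 0.00197). Glucosinolate genes had 8 of 15 at a higher response and 1 at a lower one, with 14 higher without Col-0 salt suffix 0, 2 without smeb-1 salt suffix 0, smeb-1 control suffix 0 or Col-0 control suffix 1, 3 without smeb-1 control suffix 1, 5 without Col-0 control suffix 0 and 3 when only these groups were fitted.

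Among the named genes with a lower response in smeb-1, the controls of smeb-1 were often above those of Col-0. Over all 699 genes with a lower response, the larger gap between the lines was in salt for 414. Their median gap, smeb-1 minus Col-0, was −0.41 in salt and 0.26 in control. ADH1, the alcohol dehydrogenase of low-oxygen responses, had 51.3 and 43.0 FPKM in smeb-1 salt and 70.6 and 89.5 FPKM in smeb-1 control, against 101 and 125 FPKM in Col-0 salt and 11.6 and 10.3 FPKM in Col-0 control (difference −3.99 ± 0.35, adjusted p = 0.000331). The fall within smeb-1, −0.75 (adjusted p = 0.0255), was not called without smeb-1 salt suffix 1 (0.133), without smeb-1 control suffix 1 (0.152) or with no filter (0.0506). TH8, an h-type thioredoxin, had 25 and 27.7 FPKM in smeb-1 salt and 22.9 and 29.9 FPKM in smeb-1 control, against 20.6 and 38.8 FPKM in Col-0 salt and 2.43 and 2.72 FPKM in Col-0 control (difference −3.03 ± 0.323, adjusted p = 0.000871). In both genes the Col-0 control alone was low. AT4G33070, a pyruvate decarboxylase family gene, had 8 and 5.22 FPKM in smeb-1 salt and 47.6 and 56.6 FPKM in smeb-1 control, against 3.36 and 2.82 FPKM in Col-0 salt and 3.08 and 2.83 FPKM in Col-0 control (difference −2.87 ± 0.356, adjusted p = 0.00178). AT4G39675 had 5.59 and 5.83 FPKM in Col-0 salt and 14.6 and 14 FPKM in Col-0 control (difference −4.22 ± 0.283, adjusted p = 0.000148). BT5, a BTB and TAZ domain gene, had 11.8 and 18.198 FPKM in smeb-1 salt and 52.1 and 47.5 FPKM in smeb-1 control, against 19.4 and 37.9 FPKM in Col-0 salt and 14.2 and 11.4 FPKM in Col-0 control (difference −2.74 ± 0.38, adjusted p = 0.00302). For these 3 genes the smeb-1 control was the highest group.

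PRODH1, which fell in smeb-1, had 49.9 and 64.8 FPKM in Col-0 salt and 22.5 and 21.1 FPKM in Col-0 control (difference −2.28 ± 0.259, adjusted p = 0.00117). SRO5 had 12.7 and 17.8 FPKM in Col-0 salt and 2.03 and 2.23 FPKM in Col-0 control (difference −1.91 ± 0.261, adjusted p = 0.00286). XTH23, a wall enzyme, was at 39.2 and 46.6 FPKM in smeb-1 salt and 36.5 and 45.5 FPKM in smeb-1 control, against 66.2 and 43.6 FPKM in Col-0 salt and 17.2 and 19.1 FPKM in Col-0 control (difference −1.45 ± 0.252, adjusted p = 0.00904). The smeb-1 groups of XTH23 overlapped, and the controls of all 3 genes were higher in smeb-1 than in Col-0. CAX1, a calcium/proton exchanger chosen after its values were seen, had 178 and 172 FPKM in smeb-1 salt and 199 and 203 FPKM in smeb-1 control, against 287 and 375 FPKM in Col-0 salt and 155 and 172 FPKM in Col-0 control (difference −1.2 ± 0.172, adjusted p = 0.00369). DREB2C had 5.33 and 11.4 FPKM in Col-0 salt and 2.01 and 2.2 FPKM in Col-0 control. Its difference was −1.55 ± 0.335 (adjusted p = 0.0234, but 0.0516 with no filter and 0.0721 with only these groups fitted). The DREB2C call was lost without any 1 library of smeb-1 or of the Col-0 control (adjusted p between 0.0596 and 0.0807). In the heat shock list 1 of 11 members had a higher and 7 a lower response in smeb-1, but between 1 and 3 a lower one without any 1 library of smeb-1 or of the Col-0 control and 3 when only these groups were fitted. HSP70-4 was at 104 and 87.8 FPKM in Col-0 salt and 158 and 164 FPKM in Col-0 control, against 66.7 and 60.0 FPKM and 191 and 217 FPKM in smeb-1 (difference −0.92 ± 0.132, adjusted p = 0.00351). SmEb responded less in smeb-1 than in Col-0 (difference −0.60 ± 0.13, adjusted p = 0.0238, but 0.0618 with library weights). That call was also lost without each of the smeb-1 libraries and of the Col-0 control libraries. For RCD1 the difference was −0.49 ± 0.155 (adjusted p = 0.088), and −0.69 (adjusted p = 0.000836) without Col-0 salt suffix 0. SmEa was at 0.17 ± 0.132 (adjusted p = 0.465).

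A few of the largest differences rest on groups listed at 0, where an exact 0 can be a failed estimate. U1.5, a U1 small nuclear RNA gene with near-identical copies, had 25.7 and 27.1 FPKM in smeb-1 salt and 85.4 and 55.4 FPKM in smeb-1 control. It had 0 and 0 in Col-0 salt and 98.4 and 32.6 FPKM in Col-0 control (adjusted p = 0.0195, but 0.0605 with library weights). The U1.5 call was lost without any 1 library of smeb-1 or without Col-0 control suffix 0 (adjusted p between 0.0520 and 0.0707). AT4G30097 is listed at 0 in both smeb-1 salt libraries, in smeb-1 control suffix 1 and in both Col-0 control libraries. It had 24.0 FPKM in smeb-1 control suffix 0 and 22.6 and 36.8 FPKM in Col-0 salt. Its adjusted p was 0.0207, but 0.0669 with only the smeb-1 and Col-0 groups fitted and 0.0600 with library weights. Without either smeb-1 salt or either Col-0 control library its adjusted p was between 0.0582 and 0.0705. AT2G14247 is listed at 0 in both smeb-1 salt libraries, and had 16.0 and 17.5 FPKM in smeb-1 control, 1.17 and 0.219 FPKM in Col-0 salt and 3.34 and 2.58 FPKM in Col-0 control (adjusted p = 0.0146). That call was lost without smeb-1 control suffix 0 (0.0527) or suffix 1 (0.0547) or without Col-0 control suffix 1 (0.0619). AT2G17850, a rhodanese family gene, had 1.05 and 0 FPKM in smeb-1 salt and 22.3 and 24.9 FPKM in smeb-1 control, against 0.161 and 0.364 FPKM in Col-0 salt and 1.23 and 2.16 FPKM in Col-0 control (difference −3.03 ± 0.438, adjusted p = 0.00379, but 0.0969 with a pseudocount of 0.1).

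The responses of the mutant lines were also set against each other, smeb-1 minus smeb-2. This difference passed for 1 gene, 0.00494% of those tested by limma, while 1818 genes (8.98%) had an unadjusted p under 0.05. Leaving out single libraries gave between 0 and 5 calls. The gene was AT5G46900, of the lipid-transfer protein superfamily, at 0.104 and 0 FPKM in smeb-1 salt and 1.51 and 1.4 FPKM in smeb-1 control, against 0.139 and 0 FPKM in smeb-2 salt and 13.2 and 17.0 FPKM in smeb-2 control (difference 2.68 ± 0.263, adjusted p = 0.0344). All salt libraries of both lines were near 0, and the controls differed. Relative to Col-0, which had 0.109 and 0 FPKM in salt and 23.3 and 15.4 FPKM in control, its difference was 3.02 ± 0.263 (adjusted p = 0.000331). The smeb-2 comparison lost its call without smeb-1 salt suffix 0 (adjusted p = 0.298), smeb-1 control suffix 0 (0.246) or suffix 1 (0.102), smeb-2 salt suffix 0 (0.0951) or suffix 1 (0.156), or smeb-2 control suffix 1 (0.147). It was also lost with a pseudocount of 0.1 (0.260). Of the 1576 genes at least 2-fold higher in smeb-1, 1416 were also called and at least 2-fold higher in smeb-2, which 8.96% of all tested genes were. Their median response was 1.51 in smeb-1, against 1.68 in smeb-2. By list, the median response in smeb-2 was 0.19 for phosphate starvation, −3.93 for the antenna and 1.13 for jasmonate. These medians lay on the same side of Col-0 as those of smeb-1. For the flavonoid and heat shock lists the smeb-2 medians, 2.04 and 0.003, lay on the other side of Col-0 from smeb-1. A test that finds 1 difference with 2 libraries a group does not show that the lines responded alike.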

How the data were processed

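RNA of whole seedlings was sequenced in 12 libraries. Per the submitters' processing notes, the tools were Trimmomatic 0.32, which trims reads, and TopHat2 2.0.13, a spliced aligner, and the genome build was TAIR10. The deposited table gives FPKM per gene and library, while the sources used here name neither the tool that made it nor the annotation, totals or strand use. Because FPKM is scaled to a library's total, abundant genes that move shift the rest, and overlapping or near-identical genes may share reads. The authors' deposited splicing tables give an FDR (adjusted p-value) for each event, from pooled reads, and only the genes they name were used. The table held 0 columns of other series. RefSeq TAIR10.1, whose nuclear chromosomes are those of TAIR10, matched 32817 of 33559 gene identifiers and gave symbols, products and promoter sequences.

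Genes with at least 1 FPKM in 2 or more libraries (20251) were tested with limma 3.58.1 in R 4.3.3, with an intensity trend, on log2(FPKM + 1), with 6 group means and 6 residual degrees of freedom, so all groups share the estimate of the spread. p-values were adjusted by Benjamini-Hochberg over all tested genes, with calls below 0.05. Values after ± are standard errors of the fit. Promoters were searched with Python 3.11.15 and figures drawn with matplotlib 3.10.9.

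The comparisons, the 34 gene lists (564 genes, 549 tested) and all members were chosen with earlier results of these data known, so counts in lists are descriptions and no list was tested as a set. Genes named were SmEb, SmEa and RCD1, the 12 largest rises and falls (called, mean FPKM of at least 5 over the smeb-1 libraries, no overlap), and list members. Of lists, all tested members could be named where the list has at most 9, and otherwise up to 5 called members with the smallest p and the member with the largest p. The 8 highest and 8 lowest called differences with a mean FPKM of at least 5 were also named, and genes with several splicing events. The main choices were varied singly: the pseudocount (0.1), the filter (none), the scaling (median of ratios, or quantile), the groups fitted (those compared), library weights, a block for the column suffix, a 2-fold minimum, and the omission of each library in turn. When a group keeps 1 library, its spread is taken from the other groups. List counts under these alternatives were added after seeing the data.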

Additional observations from a re-analysis of the deposited data

Results flagged for a closer look

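A gene is given here when the test of the difference in salt response passed at an adjusted p under 0.05 in limma and the gene had been named. Groups of 2 libraries are too small for a search for outlying samples. Values are log2 differences of response, smeb-1 minus Col-0, and positive ones mean a higher response in smeb-1.

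Among phosphate starvation genes the values were 3.59 for SPX3, 3.57 for PS2, 3.35 for PEPC1, 2.91 for MGDC, 1.62 for PHT1;1 and 1.61 for PAP17, and the acid phosphatase PAP14 was at 3.37. Of the antenna, LHCB2.3 was at 2.79, LHCB2.1 at 2.69 and LHCB3 at 2.34, and GUN4 of chlorophyll synthesis at 1.45. Jasmonate genes had 2.23 for AOC1, 1.75 for VSP1, 1.11 for OPR3 and 0.81 for MYC2. Salt-induced genes with a higher response were RD20 (2.16), CSLA01 (2.03), BAM5 (1.96), DFR (1.78), LDOX (1.38), P5CS1 (1.19), RD29A (1.17), CAT2 (1.15) and AOX1A (0.81), and the clock gene LNK2 was at 1.16. AT5G46900 was at 3.02, and at 2.68 for smeb-1 minus smeb-2, the one call of that comparison.

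Lower responses in smeb-1 were those of AT4G39675 (−4.22), ADH1 (−3.99), TH8 (−3.03), AT2G17850 (−3.03), AT4G33070 (−2.87), BT5 (−2.74) and PRODH1 (−2.28). SRO5 was at −1.91, DREB2C at −1.55, XTH23 at −1.45, KIN1 at −1.26, CAX1 at −1.2, HSP70-4 at −0.92 and SmEb itself at −0.60. The fitted values of U1.5 (4.50), AT4G30097 (−7.22), AT2G14247 (−2.87) and PAP14 (3.37) rest on groups listed at 0 and depend on the pseudocount. The AT2G17850 call was lost with a pseudocount of 0.1 (adjusted p = 0.0969 by limma).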

How the results depend on the processing

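The count of 11708 genes called for salt in smeb-1 stayed within 1.5 times of its value under the alternatives other than a minimum fold of 2, which left 2671 (1576 higher, 1095 lower), and lay between 9560 and 10034 as each smeb-1 library was left out. For smeb-1 minus Col-0 the 1726 calls became 834 (549 higher, 285 lower) when only the groups compared were fitted. As each library was left out they lay between 640 and 4709, with 437 to 2167 higher and 203 to 2542 lower, and lower calls outnumbered higher ones without Col-0 salt suffix 0. For smeb-1 minus smeb-2 the single call became 0 with a pseudocount of 0.1 and with the replicate block, 10 with no filter, 43 (9 higher, 34 lower) with only the groups compared, 36 (10 higher, 26 lower) with library weights, and between 0 and 5 (0 to 3 higher, 0 to 2 lower) as each library was left out. Of 243 named genes, 228 kept their direction and side of the threshold for salt in smeb-1, 11 (SmEb, SRO5, PRODH2, LHCA6, RBCS1A, CAX1, ZTL, HSP17.4, CASP5, U1.5 and AT4G30097) passed only under at least 1 alternative, and 4 (RCD1, ADH1, MYB29 and ATG5) lost the call under at least 1. For the difference from Col-0 34 of 45 kept both, 10 lost the call and RCD1 gained it. No called gene among these reversed. SmEb passed the test of smeb-1 minus smeb-2 with library weights (0.93, adjusted p = 0.0393) and without smeb-2 control suffix 0 (1.07, adjusted p = 0.0376). The cause of these changes was not tested. The median over all genes was 0.03 as deposited, −0.003 with median-of-ratios scaling and −0.03 with quantile normalization, and 53.6%, 49.9% and 47.1% of calls were higher. The labels do not tie libraries with the same column suffix to each other. Deviations of such libraries correlated at −0.031 between the smeb-1 groups and at 0.034 between the Col-0 groups. Between smeb-1 and Col-0 they correlated at −0.066 for the salt groups and at 0.107 for the control groups. Such correlations cannot tell whether a batch was shared. With the suffix as a replicate block, 11607 genes were called for salt in smeb-1, 1523 for the difference from Col-0 and 0 for that from smeb-2. Depth is unknown, so a low FPKM carries no limit of detection here.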
